A study of Homo sapiens with 12 samples.

Results

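The human bronchial epithelial line 16HBE, an immortalised line from the lining of the airway, was compared between cells that carried dominant-negative Ras, written DN Ras below, and cells that carried the empty vector. The arrays were chosen by their labels, 3 of each group, and make up 6 of the 12 arrays of the study. Control cells were stably infected with the retroviral vector pQCXIP and received the solvent DMSO for 4 days. The other cells were stably infected with pQCXIP-DN Ras, titled DN Ras N17, and no solvent or treatment time is stated for them. Whether these cells received DMSO is therefore unknown. If they did not, DN Ras and the lack of DMSO cannot be told apart in this comparison. The 6 further arrays held vector cells treated for 4 days with 500 nM of the MEK inhibitor GSK1120212 or with 1 µM of the ERK inhibitor SCH772984. Where DN Ras is set against these groups, the construct, the inhibitor, any solvent and the time of treatment cannot be told apart. The design text names 3 independent experiments with 1 sample of every group in each. The labels do not state which Ras gene carries the mutation, how many infected lines or clones were used, or the slide and scan of each array.

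Ras proteins are small GTPases at the inner face of the plasma membrane that exchange factors load with GTP after growth factor receptors are engaged. The N17 form binds these exchange factors tightly and keeps them from endogenous Ras. Active Ras recruits Raf, which phosphorylates MEK, and MEK phosphorylates ERK, but Ras also engages PI3K and the exchange factors of Ral. In epithelial cells ERK switches on immediate-early transcription factors, growth factor ligands and a set of feedback inhibitors that damp the cascade. MEK and ERK inhibitors act on the kinases below Ras, so a gene that moves with DN Ras alone is measured against both.

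All levels below are background-corrected, quantile-normalised log2 intensities of 1 probe per gene, and changes are differences of log2 means with their SE, fitted with limma on 3 arrays a group and 12 arrays sharing 1 estimate of the spread. A gene rose or fell where its Benjamini-Hochberg adjusted p was under 0.05 over 10261 genes, and a fall of 1 on this scale is a halving of the intensity. Between 16825 and 18295 of 47322 probes were detected on each array. DN Ras replicate 3 stood apart. Across genes, which are not independent replicates, it correlated with its group at r = 0.977 and 0.981, against 0.986 to 0.993 for the other pairs of arrays within a group. On it 80 genes lay 2-fold or more outside the range of the other 2 arrays of DN Ras, while each of the other 11 arrays had at most 22 such genes. Results were therefore computed with and without it. All 7 epithelial markers, KRT5, KRT7, KRT8, KRT18, KRT19, CDH1 and EPCAM, were detected on all 6 arrays, and their summed intensity was 13775 to 15405 in control and 11903 to 13941 with DN Ras. The leukocyte antigen PTPRC and T cell receptor gene CD3D, the fibroblast collagen COL3A1 and the endothelial PECAM1 were detected on none. Other members of those marker lists, among them CD14, CD68, FCGR3A, LCP1, COL1A1, FBLN1, ENG and EGFL7, were detected on all 6.

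With DN Ras, 1324 genes changed, 631 higher and 693 lower, or 12.9% of the genes tested (6.15% higher and 6.75% lower). Without DN Ras replicate 3 the counts were 500 and 550 (4.87% and 5.36%, 10.2% in all), and 875 genes changed in the same direction in both fits. Changes of at least 2-fold were made up of 65 rises and 137 falls, of which 195 of 202 passed with and without that array. The median change of all genes was 0.01. Higher genes made up 47.7% of the calls, but 23.6% when arrays were scaled to 1 median in place of quantiles, where the median change of all genes was −0.11. The count was 830 with limma fitted to the 6 arrays alone (8.09%) and 761 without control replicate 1 or 845 without control replicate 3. Counts of called list members below are to be read beside 6.15% higher and 6.75% lower over all genes. A member detected on all 3 arrays of 1 group alone passed the filter through that group, so the filter favoured a higher level there.

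**Figure D1:**
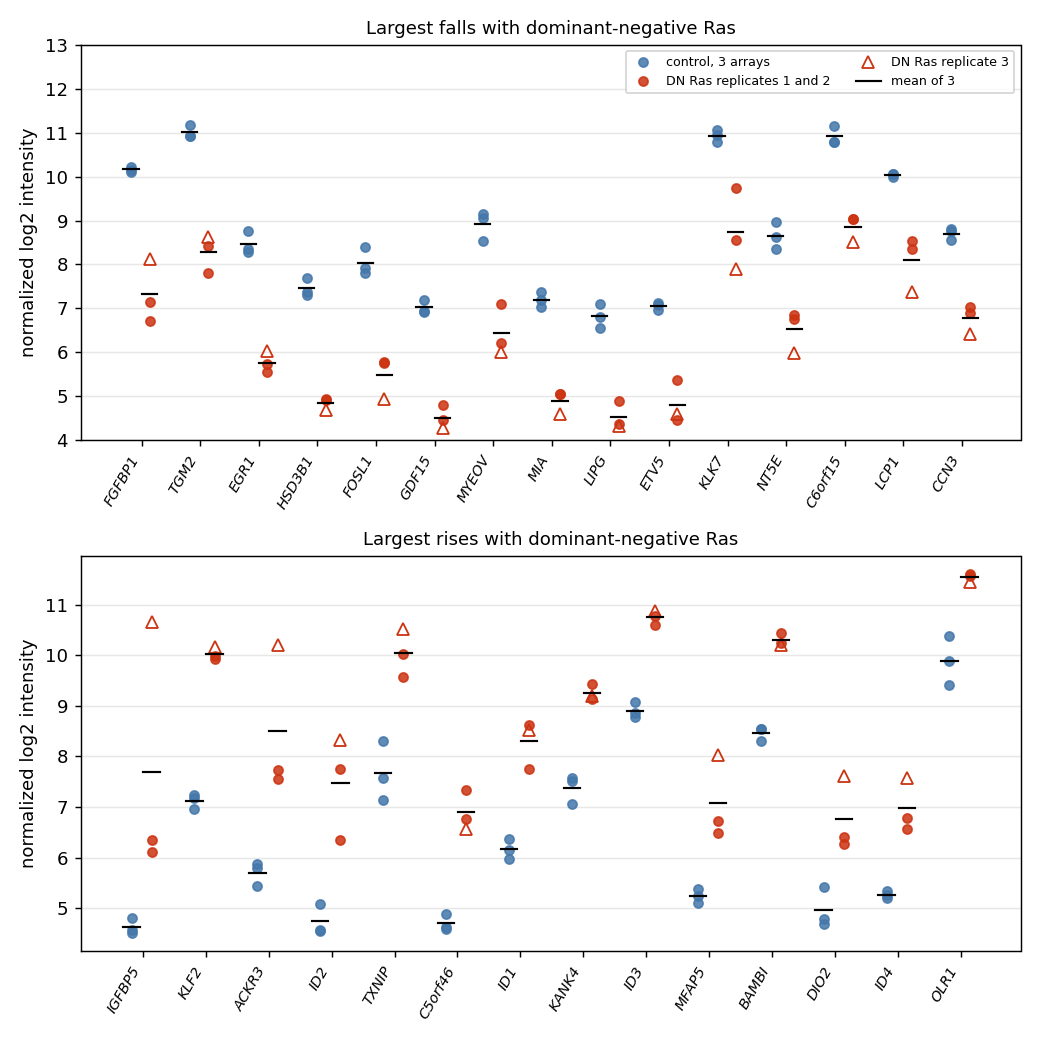
Normalised log2 intensity (vertical axis) of genes among the largest falls (upper panel) and the largest rises (lower panel) with DN Ras, chosen for these changes. Blue points are the 3 control arrays, red points DN Ras replicates 1 and 2, open triangles DN Ras replicate 3, and bars the mean of 3 arrays. In both panels all control points lie on one side of all DN Ras points, and IGFBP5 and ACKR3 are the rises for which replicate 3 lies farthest above the rest of its group.

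EGR1, a zinc-finger transcription factor whose gene is switched on within minutes of ERK activation, lay at 8.29, 8.77 and 8.35 on the control arrays and at 5.55, 5.73 and 6.04 with DN Ras. The groups were apart, as they were for 31.3% of all genes, and the change was −2.70 ± 0.16 (limma adjusted p = 3.25e-08), a 6.5-fold lower intensity. The EGR1 promoter is shown because serum response elements in it are the textbook route from ERK through the ETS partner Elk-1 to transcription. In the window from 250 bases before to 50 bases after the start (RefSeq, GRCh38.p14, chr5:138465229-138465528, plus strand), 2 matches to the CArG box, the 10-base element bound by SRF, lay 105 to 96 and 83 to 74 bases before the start, and they stand in capitals.
EGR1: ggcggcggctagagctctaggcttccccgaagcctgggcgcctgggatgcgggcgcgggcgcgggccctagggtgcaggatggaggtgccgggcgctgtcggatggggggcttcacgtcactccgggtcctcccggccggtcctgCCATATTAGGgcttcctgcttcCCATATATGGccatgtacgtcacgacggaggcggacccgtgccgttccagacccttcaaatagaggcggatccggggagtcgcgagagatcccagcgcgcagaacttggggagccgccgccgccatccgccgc
A CArG box (CC, 6 bases of A or T, GG, searched on both strands) was present in 1.29% of the 35116 promoters in the RefSeq table. It was present for 1 of the 10 genes that table holds among the 15 largest falls, at any listed start. SRF itself, the factor that binds the box, changed by −0.37 ± 0.11 (limma adjusted p = 0.0434). The call of SRF was lost without control replicates 1, 2 and 3 or DN Ras replicates 1 and 3 and on the 6 arrays alone (limma adjusted p = 0.0653 to 0.146). The call of SRF was lost when arrays were scaled to 1 median (limma adjusted p = 0.109). A match describes the letters of the window and no site or cause.

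Among the other large falls, the AP-1 subunit FOSL1 lay at 8.39, 7.80 and 7.93 on the control arrays and at 5.78, 5.77 and 4.94 with DN Ras, a change of −2.54 ± 0.20 (limma adjusted p = 9.61e-07). FGFBP1, a secreted carrier that releases fibroblast growth factors from the matrix, lay at 10.11, 10.16 and 10.23 on the control arrays and at 6.71, 7.14 and 8.13 with DN Ras. Its DN Ras arrays spread over more than 1 unit and all 3 lay below all control arrays, with a change of −2.84 ± 0.27 (limma adjusted p = 6.13e-06). TGM2, which encodes the protein-crosslinking tissue transglutaminase, lay at 11.18, 10.92 and 10.93 on the control arrays and at 7.81, 8.42 and 8.62 with DN Ras. It changed by −2.72 ± 0.20 (limma adjusted p = 5.23e-07), and the calls of both genes held without replicate 3 (changes of −3.24 and −2.89 without it). Other probes of TGM2 changed by −1.47 and −1.60 (limma adjusted p = 4.18e-05 and 5.02e-06).

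The steroid dehydrogenase gene HSD3B1 changed by −2.61 ± 0.12 (limma adjusted p = 6.23e-09), the stress cytokine GDF15 by −2.51 ± 0.16 (limma adjusted p = 9.19e-08) and MYEOV, a gene amplified in some tumours, by −2.48 ± 0.24 (limma adjusted p = 8.59e-06). GDF15 was detected on 1 and HSD3B1 on 2 of the 3 DN Ras arrays, which places their lower levels near background. The secreted MIA (−2.29 ± 0.18, detected on 2 of 3 DN Ras arrays), the endothelial lipase gene LIPG (−2.29 ± 0.17, on 1 of 3), the kallikrein protease gene KLK7 (−2.19 ± 0.32) and NT5E, which makes extracellular adenosine (−2.11 ± 0.19), were also among the 15. So were C6orf15 (−2.05 ± 0.19), CCN3, a matricellular protein (−1.92 ± 0.14), and LCP1, an actin-bundling protein best known from leukocytes (−1.94 ± 0.23). Limma adjusted p-values of these 7 ran from 5.23e-07 to 0.000379. Another probe of LIPG changed by −1.03 (limma adjusted p = 8.28e-05). A leukocyte marker list of 14 genes that holds LCP1 had a summed intensity of 1491 to 1626 in control and 737 to 861 with DN Ras, with 4 of the 14 measured and PTPRC, CD3D, CD3E and LYZ detected on no array of either group. LCP1 was the 1 measured member that fell, and the median change of the 4 was 0.02. The samples were 1 epithelial line, so this sum is not a count of leukocytes. Bulk RNA does not tell fewer cells with LCP1 from less LCP1 RNA per cell, and the cause was not tested.

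Transcripts known to report activity of the MEK/ERK pathway fell together. Of 10 listed score genes 8 were measured, and all 8 were lower with DN Ras, beside 6.75% of all genes that fell. Their median change was −1.33, or −1.23 with SPRY4 at its bound, against 0.01 for all genes. All 8 were called with any single array left out. All 8 were detected on all 3 control arrays, but 4 on all 3 DN Ras arrays. The others passed the detection filter through the control group alone, so the filter itself favoured a fall for them. The score transcripts were chosen for reporting the pathway, with earlier results of these data known. The ETS factor genes ETV5 and ETV4 changed by −2.25 ± 0.18 (limma adjusted p = 9.61e-07) and −1.74 ± 0.15 (limma adjusted p = 3.51e-06), each detected on 1 of 3 DN Ras arrays. PHLDA1 lay at 9.06, 8.90 and 8.73 on the control arrays and at 7.36, 7.19 and 7.12 with DN Ras, a change of −1.67 ± 0.14 (limma adjusted p = 2.07e-06).

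The feedback inhibitors of receptor signalling SPRY2 and SPRY4 and the ERK phosphatase DUSP6 are each induced by ERK and act back on the cascade. SPRY2 lay at 8.30, 8.12 and 8.20 on the control arrays and at 7.12, 7.07 and 6.81 with DN Ras, with no overlap between groups and a change of −1.20 ± 0.13 (limma adjusted p = 2.55e-05). SPRY4 was detected on no DN Ras array, a fall of at least 2.12-fold (limma adjusted p = 9.9e-06). DUSP6, detected on 2 of 3 DN Ras arrays, changed by −1.25 ± 0.15 (limma adjusted p = 5.18e-05). CCND1, the D-type cyclin that carries growth signals to the cell cycle, lay at 11.60, 11.21 and 11.36 on the control arrays and at 10.32, 10.52 and 9.77 with DN Ras, a change of −1.19 ± 0.17 (limma adjusted p = 0.000358), and the receptor tyrosine kinase gene EPHA2 changed by −0.83 ± 0.12 (limma adjusted p = 0.000385).

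A wider list of 24 measured ERK feedback and immediate-early genes split. In it 10 fell and 3 rose, with a median of −0.22, beside 6.75% and 6.15% of all genes that fell and rose. Of the 24, 23 were detected on all 3 control arrays and 21 on all 3 DN Ras arrays. The filter favoured a fall for members that passed through control alone. Besides EGR1 and FOSL1, the ERK phosphatase gene DUSP5 (−1.65 ± 0.14), the Raf inhibitors SPRED1 (−1.65 ± 0.16) and SPRED2 (−1.11 ± 0.17, detected on 2 of 3 DN Ras arrays), the small MAF factor MAFF (−1.41 ± 0.17) and MYC (−0.91 ± 0.17) fell, with limma adjusted p-values of 2.11e-06 to 0.00275. SPRY1 was detected on no DN Ras array, a fall of at least 1.35-fold (limma adjusted p = 0.00275). IER5, an immediate-early gene, changed by −0.62 ± 0.17 (limma adjusted p = 0.0295). The call of IER5 was lost without control replicates 1 and 3 or DN Ras replicate 3 and on the 6 arrays alone (limma adjusted p = 0.0521 to 0.111).

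The 3 members of that list that rose were the AP-1 subunit JUN, the stress factor ATF3 and the zinc-finger factor KLF6. JUN lay at 8.72, 8.85 and 8.80 on the control arrays and at 9.43, 9.39 and 9.58 with DN Ras, a change of 0.68 ± 0.11 (limma adjusted p = 0.000923), ATF3 changed by 0.73 ± 0.12 (limma adjusted p = 0.000709) and KLF6 by 0.73 ± 0.14 (limma adjusted p = 0.00386). The calls of JUN and KLF6 were lost when arrays were scaled to 1 median (limma adjusted p = 0.0885 and 0.0941). The other 11 members did not pass, among them the AP-1 genes FOSB (−0.17 ± 0.17), FOSL2 (0.18 ± 0.13), JUNB (0.19 ± 0.17) and JUND (0.24 ± 0.12), and the immediate-early genes IER2 (0.24 ± 0.21) and IER3 (0.41 ± 0.19). DUSP1, a nuclear MAP kinase phosphatase, lay at 8.11, 7.81 and 7.56 on the control arrays and at 9.62, 7.98 and 8.18 with DN Ras, where replicate 1 alone was far above control and the change did not pass (0.76 ± 0.29, limma adjusted p = 0.0962). It passed without DN Ras replicate 2 (1.07, limma adjusted p = 0.0283), as IER3 did without DN Ras replicate 3 (0.68, 0.00714) and ZFP36, an mRNA-decay factor (−0.42 ± 0.14 over all arrays), without DN Ras replicate 1 (−0.52, 0.0315).

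**Figure D2:**
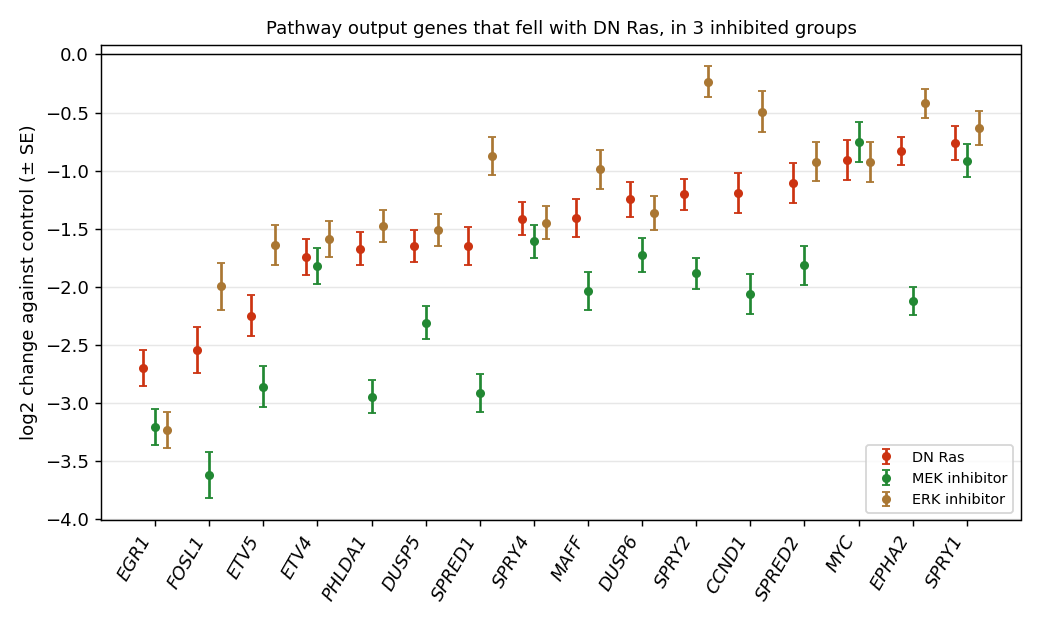
Log2 change against control ± SE (vertical axis) of the 16 pathway output genes that fell with DN Ras with and without its replicate 3, for DN Ras (red), the MEK inhibitor (green) and the ERK inhibitor (brown), ordered by the DN Ras change. The 3 comparisons share the control arrays. Every DN Ras point lies below 0, from −2.70 for EGR1 to −0.76 for SPRY1, and the MEK inhibitor point lies below the DN Ras point for all of them but MYC.

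Few genes of the cascade itself passed. HRAS lay at 8.78, 8.61 and 8.81 on the control arrays and at 9.09, 8.95 and 8.93 with DN Ras, where all DN Ras values were above all control values, but the change did not pass (0.26 ± 0.13, limma adjusted p = 0.22), and the files do not show whether its probe would read the transgene. Of 12 measured Ras family GTPase genes, 3 (2 to 4 with 1 array left out) rose and 0 fell (2 at an unadjusted p under 0.05), with a median of 0.28: RAP2A (0.71 ± 0.14), RRAS2 (0.57 ± 0.13), and RAP1A (0.57 ± 0.13), with limma adjusted p-values of 0.00336 to 0.0109. The call of RAP1A was lost without control replicate 1 (limma adjusted p = 0.0562). The calls of RAP2A, RRAS2 and RAP1A were lost when arrays were scaled to 1 median (limma adjusted p = 0.0558 to 0.175). RIT1 (0.32 ± 0.13) passed without DN Ras replicate 3 (0.45, limma adjusted p = 0.0442), and RALA, RALB, RRAS, RAP1B, RAP2C, RHEB and RASL11A did not pass, with changes from −0.45 to 0.34.

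Of 16 measured Raf, MEK and ERK kinases and scaffolds 0 passed in limma over all arrays (3 higher and 1 lower at an unadjusted p under 0.05), while 2 (MAP2K2 and the scaffold IQGAP1) rose without control replicate 1, 1 fell (KSR2) and 1 rose (IQGAP1) without DN Ras replicate 1, and 1 rose (RPS6KA3) without DN Ras replicate 3. ARAF, a Raf kinase, lay at 8.26, 8.32 and 8.37 on the control arrays and at 8.11, 8.07 and 8.26 with DN Ras. MAP2K1, which encodes MEK1, lay at 9.83, 9.83 and 9.997 on the control arrays and at 10.02, 9.98 and 10.04 with DN Ras, and MAPK3, which encodes ERK1, lay at 9.12, 8.999 and 9.06 on the control arrays and at 9.10, 9.14 and 9.14 with DN Ras. The groups of all 3 genes overlapped. Changes in this list ran from −0.55 (KSR2) to 0.40 (IQGAP1), with a median of 0.13.

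Of 13 measured Ras exchange factors and GTPase-activating proteins, RASAL2 alone passed (−0.41 ± 0.12, limma adjusted p = 0.0317). The call of RASAL2 was lost without control replicates 1 and 3 or DN Ras replicates 1 and 3 and on the 6 arrays alone (limma adjusted p = 0.0507 to 0.119). The call of RASAL2 was lost when arrays were scaled to 1 median (limma adjusted p = 0.146). Another probe of RASAL2 changed by −0.07 (limma adjusted p = 0.72), and the mean of its probes by −0.24 (0.127). In the PI3K, AKT and mTOR list of 14, the lipid phosphatase gene INPP4B (−0.82 ± 0.22) and the catalytic subunit gene PIK3CD (−0.47 ± 0.14) fell and 0 rose (2 at an unadjusted p under 0.05), with a median within 0.01 of 0. The call of INPP4B was lost without control replicates 1 and 2 or DN Ras replicate 3 and on the 6 arrays alone (limma adjusted p = 0.0515 to 0.0926). The call of PIK3CD was lost without control replicates 2 and 3 or DN Ras replicates 2 and 3 and on the 6 arrays alone (limma adjusted p = 0.0832 to 0.141). The call of PIK3CD was lost when arrays were scaled to 1 median (limma adjusted p = 0.0695). FOXO factors are held out of the nucleus by AKT. Of 15 FOXO target genes 2 rose, TXNIP (below) and KLHL24 (0.55 ± 0.11, limma adjusted p = 0.00488), and ERBB3 fell, with a median of 0.04. The call of KLHL24 was lost when arrays were scaled to 1 median (limma adjusted p = 0.185).

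Among 11 Ral and other Ras effector genes the Rac exchange factor TIAM1 fell (−0.54 ± 0.12, limma adjusted p = 0.00639), and RALGDS, an exchange factor for Ral (0.38 ± 0.12), and RASSF1 (0.62 ± 0.16) rose. The call of RALGDS was lost without control replicates 1, 2 and 3 or DN Ras replicates 1 and 3 and on the 6 arrays alone (limma adjusted p = 0.0571 to 0.154). The call of RASSF1 was lost without control replicates 1 and 3 or DN Ras replicate 2 (limma adjusted p = 0.0518 to 0.106). The calls of RALGDS and RASSF1 were lost when arrays were scaled to 1 median (limma adjusted p = 0.56 and 0.156). At the receptor end, of 9 EGFR family genes, ligands and brakes 4 (2 without control replicate 3) fell. In this list 0 rose (0 at an unadjusted p under 0.05), and the median was −0.03. Over all genes 6.75% fell and 6.15% rose. HBEGF, the heparin-binding EGFR ligand, lay at 8.53, 8.36 and 8.64 on the control arrays and at 7.46, 6.69 and 6.54 with DN Ras, a change of −1.61 ± 0.23 (limma adjusted p = 0.000353), and ERRFI1, an inhibitor of the receptor, changed by −1.02 ± 0.15 (limma adjusted p = 0.000465). The ligand TGFA (−0.72 ± 0.21) and the receptor ERBB3 (−0.52 ± 0.13) were the others. The call of TGFA was lost without control replicates 1 and 3 or DN Ras replicates 2 and 3 and on the 6 arrays alone (limma adjusted p = 0.0521 to 0.12). The call of ERBB3 was lost without control replicates 2 and 3 and on the 6 arrays alone (limma adjusted p = 0.0517 to 0.0765). Other probes of ERBB3 changed by −0.12 and 0.07 (limma adjusted p = 0.586 and 0.793), and the mean of its probes by −0.19 (0.259).

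KLF2 was among the largest rises, with little spread between arrays. KLF2, a zinc-finger factor known for quiescence and for its induction through ERK5 and MEF2 in endothelial cells, lay at 7.18, 6.95 and 7.24 on the control arrays and at 9.98, 9.92 and 10.17 with DN Ras. All DN Ras arrays lay more than 2 units above all control arrays, a change of 2.90 ± 0.15 (limma adjusted p = 1.66e-08) or 7.46-fold. The KLF2 promoter is shown because a MEF2 site in it, in capitals, lay 120 to 111 bases before the start (RefSeq, GRCh38.p14, chr19:16324576-16324875, plus strand).
KLF2: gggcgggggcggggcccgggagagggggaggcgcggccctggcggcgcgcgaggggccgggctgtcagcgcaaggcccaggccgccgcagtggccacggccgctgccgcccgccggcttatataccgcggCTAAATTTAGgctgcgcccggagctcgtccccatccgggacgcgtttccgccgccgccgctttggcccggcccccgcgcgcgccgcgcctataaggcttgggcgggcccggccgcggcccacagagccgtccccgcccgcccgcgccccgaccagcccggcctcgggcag
A MEF2 site (CTA, 4 bases of A or T, TAG, searched on both strands) was present in 0.572% of 35116 promoters. It was present for 1 of the 12 genes in the table among the 15 largest rises, at any listed start.

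TXNIP, which binds thioredoxin and limits glucose uptake, lay at 7.13, 8.32 and 7.58 on the control arrays and at 9.57, 10.02 and 10.53 with DN Ras. The control arrays themselves spread over more than 1 unit, and the change was 2.37 ± 0.25 (limma adjusted p = 1.89e-05). Its promoter is shown because TXNIP is a known FOXO target. Of 2 listed starts, the window shown is the first that holds the forkhead core GTAAACA (RefSeq, GRCh38.p14, chr1:145996530-145996829, minus strand). The match, in capitals, lay 124 to 118 bases before the start.
TXNIP: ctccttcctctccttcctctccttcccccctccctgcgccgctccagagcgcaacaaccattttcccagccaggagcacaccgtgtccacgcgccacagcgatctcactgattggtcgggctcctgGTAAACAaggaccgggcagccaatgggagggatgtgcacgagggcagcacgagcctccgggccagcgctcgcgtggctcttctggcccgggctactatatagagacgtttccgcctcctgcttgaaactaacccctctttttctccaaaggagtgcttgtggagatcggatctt
GTAAACA on either strand was present in 3.42% of 35116 promoters, in 1 of 12 genes of the largest rises and in 1 of 10 of the largest falls (GDF15). A gene counted if any of its listed starts matched, while the percentages are shares of single promoters. The AP-1 element TGANTCA was present in 7.71% of promoters, in 1 of the 12 (DIO2) and in 0 of the 10, and the EGR-type element GCGNGGGCG in 9.43%, in 4 of the 12 and in 2 of the 10. GCGNGGGCG and TGANTCA were searched on both strands too, and all windows were 300 bases long.

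All 4 ID genes, dimerisation partners that block basic helix-loop-helix factors and classic targets of BMP signalling, were among the 15 largest rises. ID1 lay at 5.97, 6.37 and 6.15 on the control arrays and at 7.75, 8.62 and 8.53 with DN Ras, a change of 2.14 ± 0.23 (limma adjusted p = 1.83e-05). ID2, detected on 1 of 3 control arrays, lay at 4.54, 5.09 and 4.57 on the control arrays and at 6.35, 7.76 and 8.32 with DN Ras. Its DN Ras arrays spread over nearly 2 units and all lay above control, with a change of 2.75 ± 0.34 (limma adjusted p = 8.77e-05) and 2.34 without replicate 3. ID3 lay at 8.78, 8.86 and 9.07 on the control arrays and at 10.60, 10.77 and 10.88 with DN Ras, and changed by 1.85 ± 0.12 (limma adjusted p = 9.19e-08) with little spread. ID4 lay at 5.33, 5.26 and 5.20 on the control arrays and at 6.57, 6.77 and 7.57 with DN Ras, where replicate 3 was the highest, and changed by 1.71 ± 0.20 (limma adjusted p = 4.41e-05).

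BAMBI, a decoy receptor that dampens TGF-beta and BMP signals and is itself induced by them, lay at 8.30, 8.55 and 8.54 on the control arrays and at 10.45, 10.24 and 10.20 with DN Ras, a change of 1.84 ± 0.12 (limma adjusted p = 1.03e-07). Of 14 measured TGF-beta and BMP target genes, 6 rose and 0 fell (0 at an unadjusted p under 0.05), with a median of 0.44. Over all genes 6.15% rose and 6.75% fell. The 6 were the ID genes, BAMBI and the repressor TGIF1 (0.54 ± 0.13, limma adjusted p = 0.0157), which was named after its value was seen. The call of TGIF1 was lost without control replicate 1 (limma adjusted p = 0.0784). The call of TGIF1 was lost when arrays were scaled to 1 median (limma adjusted p = 0.246). Also among the 15 largest rises were C5orf46 (2.19 ± 0.20, detected on 1 of 3 control arrays), the scaffold gene KANK4 (1.87 ± 0.16), the microfibril gene MFAP5 (1.84 ± 0.29), DIO2, which activates thyroid hormone (1.81 ± 0.32, detected on 1 of 3 control arrays), and OLR1, a receptor for oxidised lipoprotein (1.65 ± 0.18). Their limma adjusted p-values ran from 2.07e-06 to 0.0018. DIO2 lay at 6.27, 6.41 and 7.62 with DN Ras, and its change was 1.39 without replicate 3.

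**Figure D3:**
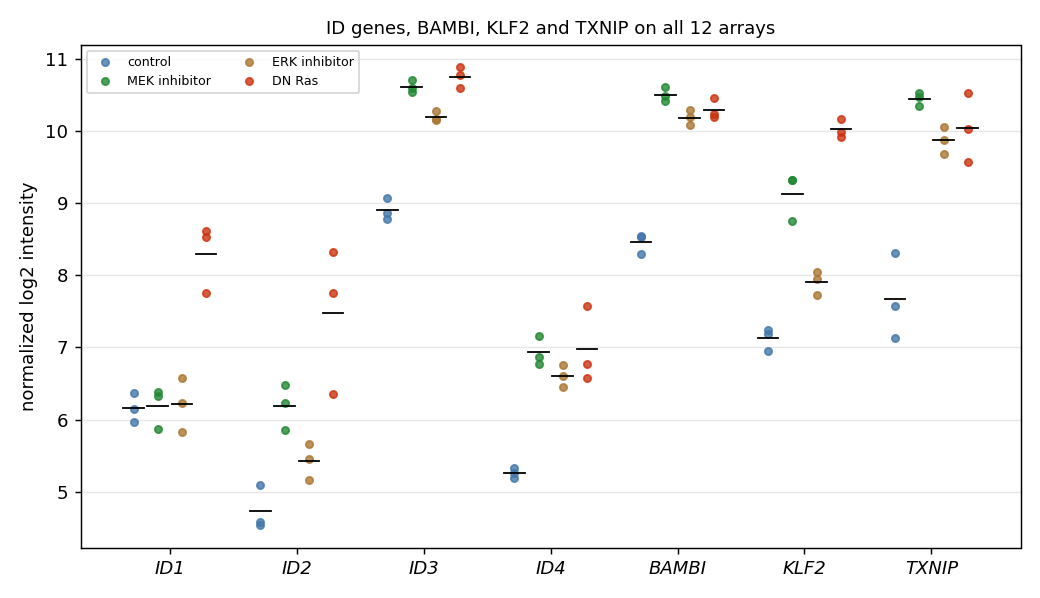
Normalised log2 intensity (vertical axis) of the ID genes, BAMBI, KLF2 and TXNIP on all 12 arrays, coloured by group, with bars at the mean of 3. ID1 is high on the 3 DN Ras arrays alone, while BAMBI, ID3 and TXNIP lie above all control arrays in each of the 3 inhibited groups.

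IGFBP5 and ACKR3 rose by different amounts on the 3 DN Ras arrays. IGFBP5, which binds insulin-like growth factors outside the cell, was detected on no control array, and with DN Ras it lay at 6.11, 6.34 and 10.65, so that replicate 3 carried most of the mean. It was at least 7.23-fold higher (limma adjusted p = 0.0181), and its fitted change of 3.08 came to 1.62 without replicate 3 (limma adjusted p = 0.00237). The call of IGFBP5 was lost without control replicates 1 and 2 and on the 6 arrays alone (limma adjusted p = 0.0546 to 0.0734). ACKR3, a scavenging chemokine receptor, lay at 5.44, 5.88 and 5.79 on the control arrays and at 7.73, 7.55 and 10.21 with DN Ras, a change of 2.80 ± 0.51 (limma adjusted p = 0.00216), or 1.95 without replicate 3 (0.000609).

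The genes on which replicate 3 lay farthest from its group were chosen for that distance, so their values are a description. Below the group lay 3 secreted defence and acute-phase genes and a hair keratin. SAA1 lay at 7.01, 7.41 and 7.30 on the control arrays and at 7.85, 7.77 and 4.81 with DN Ras. LCN2 lay at 8.70, 9.39 and 9.23 on the control arrays and at 9.71, 9.89 and 7.03 with DN Ras, and SERPINA3 lay at 6.88, 7.08 and 7.27 on the control arrays and at 8.41, 7.40 and 5.07 with DN Ras. In each case replicates 1 and 2 were above all control arrays and replicate 3 was below them. KRT34 lay at 8.48, 7.77 and 7.84 on the control arrays and at 7.88, 6.72 and 4.88 with DN Ras. Above the group, besides IGFBP5 and ACKR3, lay the glutathione transferase gene GSTM1, at 6.98, 7.13 and 9.84 with DN Ras, and SUSD2, at 7.71, 6.97 and 9.91. None of SAA1, LCN2, SERPINA3, KRT34, GSTM1 and SUSD2 passed on the probe used here in limma over all arrays. Without DN Ras replicate 1, KRT34 (−2.22, limma adjusted p = 0.0022) and GSTM1 (1.63, 0.0318) did, as they did when arrays were scaled to 1 median (−1.58, 0.000175 and 0.99, 0.0198). On another probe GSTM1 rose by 1.30 over all arrays (limma adjusted p = 0.0414). Of the 80 genes on which replicate 3 lay 2-fold or more outside its group, 27 were among the 1324 called, beside 12.9% of all genes tested.

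**Figure D4:**
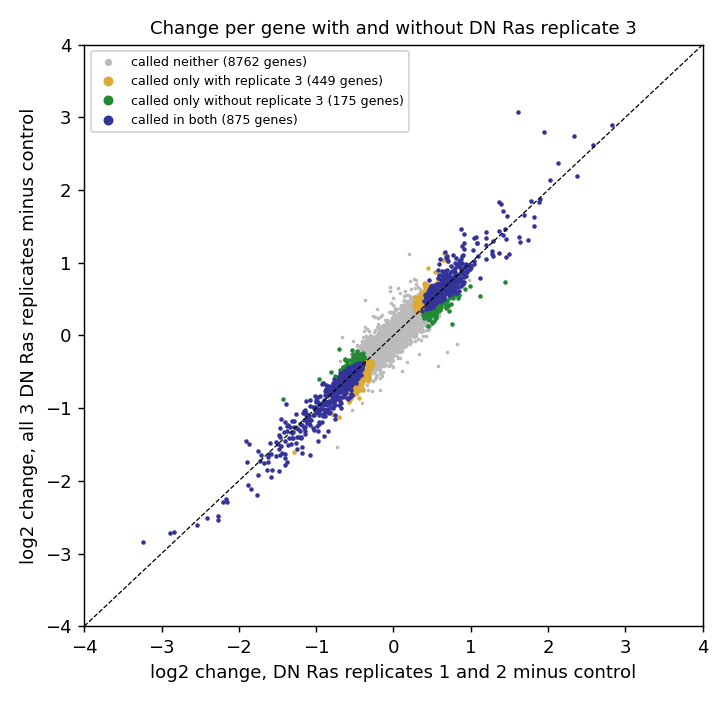
Log2 change per gene with DN Ras replicates 1 and 2 alone (horizontal axis) against the change with all 3 replicates (vertical axis). The axes share 5 of their 6 arrays, so points lie near the dashed line of equality by construction. 875 genes were called in both fits (dark blue), 449 only with replicate 3 (orange) and 175 only without it (green), and the points far above the line at the right are IGFBP5 and ACKR3.

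Genes of sterol synthesis were lower with DN Ras. Of 20 measured cholesterol synthesis genes, 12 (8 to 13 with 1 array left out) fell and 0 rose (0 at an unadjusted p under 0.05), beside 6.75% of all genes that fell, and 13 fell without DN Ras replicate 3. The median change was −0.51, and −0.59 without that array. All 20 were detected on all 3 control arrays and 18 on all 3 DN Ras arrays, so the filter favoured a fall for the others. NSDHL, which removes methyl groups from the sterol ring, lay at 9.38, 9.37 and 9.40 on the control arrays and at 8.66, 8.51 and 8.63 with DN Ras, a change of −0.79 ± 0.10 (limma adjusted p = 0.000106). MVD, which makes isopentenyl pyrophosphate, lay at 8.79, 9.09 and 8.78 on the control arrays and at 7.32, 7.65 and 8.10 with DN Ras, with replicate 3 the nearest to control and a change of −1.19 ± 0.17 (limma adjusted p = 0.000252). DHCR7, an enzyme of the last steps to cholesterol, changed by −1.09 ± 0.16 (limma adjusted p = 0.00039) and the prenyl synthase FDPS by −1.02 ± 0.16 (limma adjusted p = 0.000622).

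In fatty acid synthesis, 6 (3 without control replicate 1 or DN Ras replicate 1) of 17 genes fell and 0 rose (0 at an unadjusted p under 0.05), with a median of −0.15, and −0.29 without DN Ras replicate 3. The desaturase gene SCD lay at 10.90, 11.003 and 11.02 on the control arrays and at 9.15, 8.97 and 10.42 with DN Ras, so that replicate 3 was the nearest to control, and it changed by −1.46 ± 0.27 (limma adjusted p = 0.00214) or −1.91 without that array. The elongase gene ELOVL6 changed by −1.24 ± 0.13 (limma adjusted p = 1.92e-05) and the desaturases FADS1 and FADS2 by −0.70 ± 0.15 and −0.54 ± 0.14 (limma adjusted p = 0.00527 and 0.0225). The call of FADS2 was lost without control replicates 1 and 2 or DN Ras replicates 1 and 2 (limma adjusted p = 0.0503 to 0.0914). In glycolysis, 4 (1 without control replicate 1) of 21 fell, PFKL (−0.58 ± 0.12), PFKP, LDHB and the glucose transporter SLC2A1, the last named after its value was seen (−0.44 ± 0.12, limma adjusted p = 0.024), with a median of −0.09. The call of PFKP was lost without control replicates 1 and 3 or DN Ras replicate 3 (limma adjusted p = 0.0762 to 0.094). The call of LDHB was lost without control replicates 1 and 2 or DN Ras replicate 3 (limma adjusted p = 0.057 to 0.0653). The call of SLC2A1 was lost without control replicates 1 and 3 or DN Ras replicates 1 and 2 and on the 6 arrays alone (limma adjusted p = 0.0575 to 0.107). PFKFB3, whose product makes the activator of phosphofructokinase, rose. It lay at 7.30, 7.501 and 7.56 on the control arrays and at 8.11, 8.61 and 8.21 with DN Ras. The change was 0.85 ± 0.13 (limma adjusted p = 0.000548). Another probe of PFKFB3 changed by 0.36 (limma adjusted p = 0.346). Of 14 hypoxia response genes 4 (1 without control replicates 1, 2 and 3 or DN Ras replicate 2) fell and 2 (1 without control replicates 1, 2 and 3 or DN Ras replicates 2 and 3) rose, with a median of 0.07.

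**Figure D5:**
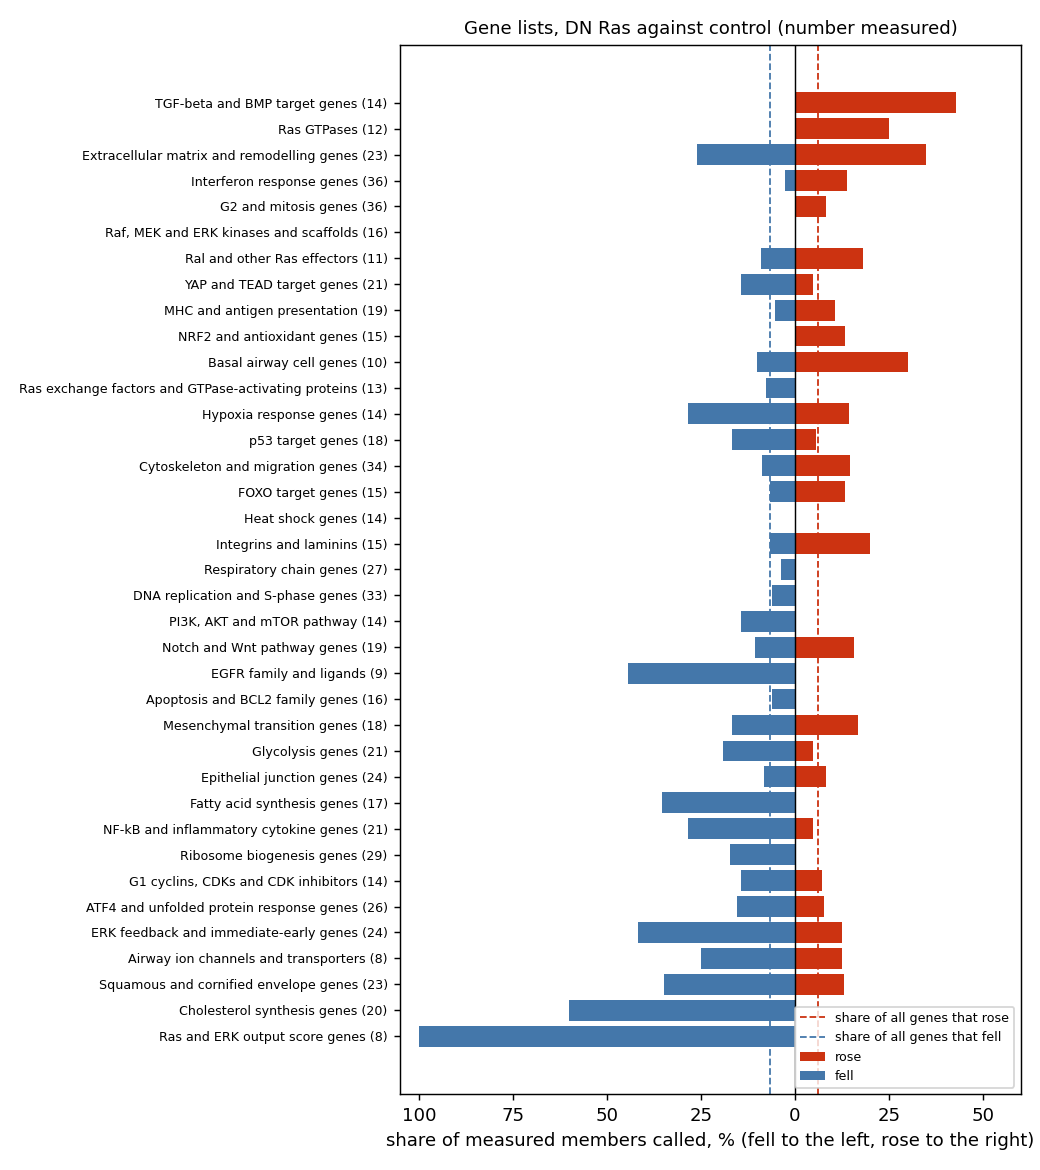
Share of measured members called with DN Ras against control, in %, for gene lists with at least 8 measured members (number in brackets; cell type marker lists left out), ordered by median change, with falls drawn to the left in blue and rises to the right in red. Dashed lines mark the shares of all genes tested, 6.15% that rose and 6.75% that fell. The score, cholesterol synthesis and EGFR lists reach farthest left, and the TGF-beta and BMP list farthest right.

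Among 23 squamous and cornified envelope genes 8 (5 without control replicate 1) fell and 3 rose, with a median of −0.35, and −0.03 without DN Ras replicate 3. All 23 were detected on all 3 control arrays and 21 on all 3 DN Ras arrays, so the filter favoured a fall for the others. The kallikrein proteases that shed the cornified layer led the falls. KLK6 lay at 11.71, 11.43 and 11.55 on the control arrays and at 10.61, 10.003 and 9.87 with DN Ras, a change of −1.40 ± 0.17 (limma adjusted p = 7.47e-05), and KLK8 was detected on no DN Ras array, a fall of at least 2.47-fold (limma adjusted p = 6.72e-05). CRCT1, a gene of the epidermal differentiation cluster, changed by −1.86 ± 0.24 (limma adjusted p = 0.000131). The 3 rises, named after their values were seen, were the transglutaminase TGM1 (0.82 ± 0.13), the stress keratin KRT16 (1.13 ± 0.20) and the desmosomal cadherin DSG3 (0.49 ± 0.14). The call of DSG3 was lost without control replicates 1 and 2 or DN Ras replicate 1 and on the 6 arrays alone (limma adjusted p = 0.0689 to 0.113). The call of DSG3 was lost when arrays were scaled to 1 median (limma adjusted p = 0.246).

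Basal cell genes moved both ways: of 10, SNAI2, a repressor of E-cadherin (1.10 ± 0.24, limma adjusted p = 0.00762), and the keratins KRT5 (0.63 ± 0.18) and KRT14 rose and KRT15 fell (−0.82 ± 0.15, limma adjusted p = 0.00234, detected on 2 of 3 DN Ras arrays), with a median of 0.07. KRT14 was detected on no control array and was at least 1.27-fold higher (limma adjusted p = 0.0424). The call of KRT5 was lost without control replicates 1, 2 and 3 or DN Ras replicates 2 and 3 (limma adjusted p = 0.0554 to 0.117). The call of KRT14 was lost without control replicates 1, 2 and 3 or DN Ras replicates 1 and 2 and on the 6 arrays alone (limma adjusted p = 0.0507 to 0.17). The luminal keratin KRT18 lay at 8.17, 8.22 and 8.16 on the control arrays and at 7.22, 7.13 and 7.14 with DN Ras, a change of −1.02 ± 0.14 (limma adjusted p = 0.000186). Of 24 junction genes the tight junction gene CLDN3 fell (−1.33 ± 0.18, limma adjusted p = 0.000201) and OVOL2, a keeper of epithelial identity, rose (0.98 ± 0.13, limma adjusted p = 0.00016). CLDN4 (−0.65 ± 0.20) fell and GRHL2 (0.54 ± 0.14) rose. The call of CLDN4 was lost without control replicates 1 and 2 or DN Ras replicates 1 and 2 and on the 6 arrays alone (limma adjusted p = 0.0782 to 0.17). The call of GRHL2 was lost without control replicates 1 and 2 or DN Ras replicate 2 (limma adjusted p = 0.0519 to 0.0787). The calls of KRT5, KRT14 and GRHL2 were lost when arrays were scaled to 1 median (limma adjusted p = 0.0818 to 0.177).

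Matrix genes changed in both directions. Of 23 matrix and remodelling genes 8 (5 without control replicate 1) rose and 6 fell, with a median of 0.17, and under median scaling 4 rose and 7 fell. Over all genes the shares were 6.15% and 6.75%. The plasminogen activators PLAT and PLAU, proteases that start pericellular proteolysis, changed by −1.37 ± 0.14 (limma adjusted p = 1.63e-05) and −0.98 ± 0.14 (limma adjusted p = 0.000299). TIMP1, an inhibitor of matrix metalloproteases, lay at 11.02, 10.81 and 10.99 on the control arrays and at 9.97, 9.84 and 9.09 with DN Ras, a change of −1.30 ± 0.18 (limma adjusted p = 0.000177). The filament protein gene MATN2 rose (1.28 ± 0.18, limma adjusted p = 0.000344), as did COL1A1 (0.47 ± 0.12, limma adjusted p = 0.0157). The call of COL1A1 was lost without control replicate 1 (limma adjusted p = 0.0732). The call of COL1A1 was lost when arrays were scaled to 1 median (limma adjusted p = 0.23).

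Of 18 mesenchymal transition genes 3 (2 to 4 with 1 array left out) rose and 3 fell, with a median of −0.03. Tenascin gene TNC lay at 8.88, 8.63 and 8.56 on the control arrays and at 7.25, 7.48 and 6.87 with DN Ras, a change of −1.49 ± 0.18 (limma adjusted p = 7.8e-05), and CCN2, a matricellular YAP target, changed by −0.67 ± 0.14 (limma adjusted p = 0.00512). Fibronectin gene FN1, detected on 1 of 3 control arrays, lay at 4.93, 4.59 and 4.74 on the control arrays and at 6.01, 6.38 and 5.09 with DN Ras, with replicate 3 the nearest to control and a change of 1.08 ± 0.24 (limma adjusted p = 0.00695). Among 15 integrins and laminins the collagen receptor subunit ITGA2 fell (−1.75 ± 0.25, limma adjusted p = 0.00032), and LAMC1 (0.68 ± 0.12), LAMB2 (0.65 ± 0.13) and ITGAV (0.50 ± 0.14) rose. The call of ITGAV was lost without control replicates 1, 2 and 3 or DN Ras replicates 2 and 3 and on the 6 arrays alone (limma adjusted p = 0.0587 to 0.13). The calls of LAMC1, LAMB2 and ITGAV were lost when arrays were scaled to 1 median (limma adjusted p = 0.093 to 0.314).

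Of 21 NF-kB and inflammatory cytokine genes 6 (4 to 7 with 1 array left out) fell and 1 rose. Over all genes 6.75% fell and 6.15% rose. Rises in the list numbered 0 without control replicates 1 and 3 or DN Ras replicate 2, and 2 without control replicate 2. The median of the list was −0.16 and within 0.01 of 0 without DN Ras replicate 3. All 21 were detected on all 3 control arrays and 19 on all 3 DN Ras arrays, so the filter favoured a fall for the others. The interleukin IL1A lay at 7.89, 7.48 and 7.33 on the control arrays and at 5.80, 6.73 and 6.19 with DN Ras, a change of −1.32 ± 0.19 (limma adjusted p = 0.000299), and its antagonist IL1RN, detected on 1 of 3 DN Ras arrays, changed by −1.52 ± 0.19 (limma adjusted p = 9.83e-05). The chemokine CCL20 (−0.96 ± 0.20) and the adhesion molecule ICAM1 (−0.69 ± 0.15, on 2 of 3) fell too. The neutrophil chemokine CXCL8 lay at 8.75, 8.59 and 8.64 on the control arrays and at 8.26, 8.28 and 7.18 with DN Ras, a change of −0.76 ± 0.22 (limma adjusted p = 0.0317). Replicate 3 was the lowest, and the change without it was −0.40. The call of CXCL8 was lost without control replicates 1, 2 and 3 or DN Ras replicate 3 and on the 6 arrays alone (limma adjusted p = 0.0636 to 0.103).

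IFNB1, which encodes interferon beta, lay at 6.98, 7.07 and 7.24 on the control arrays and at 7.40, 7.77 and 7.61 with DN Ras, a change that did not pass (0.50 ± 0.17, limma adjusted p = 0.0593) but did without DN Ras replicate 1 (0.60, limma adjusted p = 0.0379). Of 5 measured interferon ligands and induced chemokines 0 passed in limma over all arrays (1 higher and 0 lower at an unadjusted p under 0.05). Of 36 interferon response genes 5 (2 without control replicates 1 and 2 or DN Ras replicate 2) rose. In this list 1 (3 without DN Ras replicate 1) fell, and the median was 0.16. Over all genes 6.15% rose and 6.75% fell. IFI27, an interferon-induced mitochondrial protein, lay at 7.96, 7.69 and 7.500 on the control arrays and at 9.72, 9.34 and 8.59 with DN Ras, a change of 1.502 ± 0.32 (limma adjusted p = 0.0063), and IRF9, the DNA-binding part of the interferon-stimulated complex, changed by 0.85 ± 0.17 (limma adjusted p = 0.0045). The antiviral enzyme gene OAS1 fell (−0.65 ± 0.14, limma adjusted p = 0.00557). Other probes of OAS1 changed by −0.13 and −0.12 (limma adjusted p = 0.582 and 0.687), and the mean of its probes by −0.30 (0.0995). IFIH1 (0.52 ± 0.13) and, named after their values were seen, PARP9 (0.40 ± 0.12) and DTX3L (0.42 ± 0.13) were the other rises, and their calls were lost under median scaling (limma adjusted p = 0.278 to 0.477). The call of IFIH1 was lost without control replicates 1 and 2 or DN Ras replicate 2 (limma adjusted p = 0.0504 to 0.0744). The call of PARP9 was lost without control replicates 1, 2 and 3 or DN Ras replicates 1, 2 and 3 and on the 6 arrays alone (limma adjusted p = 0.0602 to 0.157). The call of DTX3L was lost without control replicates 1, 2 and 3 or DN Ras replicates 1, 2 and 3 and on the 6 arrays alone (limma adjusted p = 0.053 to 0.126).

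Of 14 G1 cyclins, CDKs and inhibitors, the D-type cyclins CCND1 and CCND2 fell and CDKN2B, which encodes the CDK4 inhibitor p15, rose. CCND2 lay at 8.999, 8.31 and 8.41 on the control arrays and at 6.43, 7.60 and 6.13 with DN Ras, a change of −1.85 ± 0.32 (limma adjusted p = 0.00141), and CDKN2B lay at 8.46, 8.76 and 8.59 on the control arrays and at 9.20, 9.28 and 9.82 with DN Ras, a change of 0.83 ± 0.15 (limma adjusted p = 0.00227). Of 33 replication genes 2 (0 without control replicate 3 or DN Ras replicates 2 and 3) fell and 0 rose (3 at an unadjusted p under 0.05), CDC6 (−0.49 ± 0.14) and MCM6 (−0.41 ± 0.12). The call of CDC6 was lost without control replicates 2 and 3 or DN Ras replicates 2 and 3 (limma adjusted p = 0.0529 to 0.0987). The call of MCM6 was lost without control replicates 2 and 3 or DN Ras replicates 1, 2 and 3 and on the 6 arrays alone (limma adjusted p = 0.0516 to 0.182). The calls of CDC6 and MCM6 were lost when arrays were scaled to 1 median (limma adjusted p = 0.0954 and 0.0527). Of 36 mitosis genes 3 (1 without control replicate 1, 5 without DN Ras replicate 1) rose and 0 fell (0 at an unadjusted p under 0.05), with a median of 0.14, among them the spindle checkpoint kinase TTK (0.53 ± 0.11, limma adjusted p = 0.0051). Over all genes 6.75% fell and 6.15% rose, near the shares of the replication and mitosis lists. All 3 mitosis rises, TTK, CDC25B and KIF11, were lost under median scaling (limma adjusted p = 0.251 to 0.423). The call of CDC25B was lost without control replicate 1 (limma adjusted p = 0.0506). The call of KIF11 was lost without control replicate 1 or DN Ras replicates 2 and 3 and on the 6 arrays alone (limma adjusted p = 0.0548 to 0.0873). Among 29 ribosome biogenesis genes 5 (2 without control replicate 1) fell and 0 rose (0 at an unadjusted p under 0.05), with a median of −0.19, NOP2 (−0.60 ± 0.11, limma adjusted p = 0.0024) and BOP1 (−0.74 ± 0.14, limma adjusted p = 0.0034) with the smallest adjusted p.

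HMOX1, the haem-degrading enzyme of the NRF2 programme, lay at 6.63, 6.61 and 6.75 on the control arrays and at 7.85, 7.87 and 7.98 with DN Ras, a change of 1.24 ± 0.12 (limma adjusted p = 8.82e-06), and the glutathione synthesis gene GCLM rose by 0.73 ± 0.15 (limma adjusted p = 0.00502), 2 of 15 NRF2 genes. The call of GCLM was lost when arrays were scaled to 1 median (limma adjusted p = 0.0619). Another probe of GCLM changed by 0.12 (limma adjusted p = 0.687). Of 26 ATF4 and unfolded protein response genes 4 (7 without DN Ras replicate 1) fell and 2 (1 without control replicate 2) rose, with a median of −0.21. The chaperone HSPA5 lay at 9.48, 9.38 and 9.53 on the control arrays and at 8.85, 8.86 and 9.02 with DN Ras, a change of −0.55 ± 0.11 (limma adjusted p = 0.00471). Of 18 p53 targets 3 (5 without DN Ras replicate 1) fell, GDF15, the death receptor TNFRSF10B (−0.66 ± 0.12, limma adjusted p = 0.00235) and AEN (−0.66 ± 0.13, limma adjusted p = 0.00363), and 1 (0 without control replicate 1 or DN Ras replicate 2, 2 without DN Ras replicate 3) rose, TP53I3, with a median of 0.05. The call of TP53I3 was lost when arrays were scaled to 1 median (limma adjusted p = 0.278). Another probe of AEN changed by −0.29 (limma adjusted p = 0.266). Of 14 heat shock genes 0 passed in limma over all arrays (3 higher and 1 lower at an unadjusted p under 0.05), and of 27 respiratory chain genes 1 fell, ATP5MC1 (−0.41 ± 0.13, limma adjusted p = 0.0433). The call of ATP5MC1 was lost without control replicates 1, 2 and 3 or DN Ras replicates 1 and 2 and on the 6 arrays alone (limma adjusted p = 0.0638 to 0.12). Another probe of ATP5MC1 changed by 0.36 (limma adjusted p = 0.0912), and the mean of its probes by −0.02 (0.921).

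Of 8 measured airway ion channel and transporter genes 2 fell and 1 rose, beside 6.75% and 6.15% of all genes. ATP1B1 rose (0.76 ± 0.20, limma adjusted p = 0.0189). The call of ATP1B1 was lost without control replicates 1 and 2 and on the 6 arrays alone (limma adjusted p = 0.066 to 0.071). Another probe of it changed by 0.20 (limma adjusted p = 0.468). The falls were ANO1, a calcium-activated chloride channel, and SCNN1A, which encodes part of the sodium channel ENaC. ANO1 lay at 8.22, 8.04 and 7.81 on the control arrays and at 7.08, 7.04 and 6.75 with DN Ras, a change of −1.07 ± 0.13 (limma adjusted p = 6.46e-05). SCNN1A lay at 8.77, 8.97 and 8.84 on the control arrays and at 7.63, 7.17 and 7.95 with DN Ras, a change of −1.28 ± 0.17 (limma adjusted p = 0.000112). Of 19 Notch and Wnt genes the repressor HES2 (−1.78 ± 0.23, limma adjusted p = 0.000109) and the receptor NOTCH1 (−0.82 ± 0.20, limma adjusted p = 0.0126), named after its value was seen, fell and the Notch ligand JAG2 (1.03 ± 0.16, limma adjusted p = 0.000773), WNT10A (0.77 ± 0.15, limma adjusted p = 0.00305) and HEYL (0.67 ± 0.12, limma adjusted p = 0.00235) rose. The call of NOTCH1 was lost without control replicate 1 and on the 6 arrays alone (limma adjusted p = 0.0599 and 0.0568). The call of HEYL was lost when arrays were scaled to 1 median (limma adjusted p = 0.0573). Another probe of HES2 changed by −1.06 (limma adjusted p = 0.00166) and another of JAG2 by 0.50 (limma adjusted p = 0.0908). In the cytoskeleton list of 34, 5 (3 without control replicate 1) rose and 3 (1 without control replicates 1 and 2 or DN Ras replicate 3) fell, FSCN1 (0.60 ± 0.11, limma adjusted p = 0.00285), RDX (0.52 ± 0.11, limma adjusted p = 0.00622) and RAC2 (−0.75 ± 0.15, limma adjusted p = 0.00336) among them. The calls of FSCN1 and RDX were lost when arrays were scaled to 1 median (limma adjusted p = 0.177 and 0.286). Of 21 YAP target genes 3 fell, NT5E, CCN2 and ANKRD1 (−1.09 ± 0.23, limma adjusted p = 0.00567), and AJUBA rose (0.79 ± 0.16, limma adjusted p = 0.00412), with a median of 0.10.

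Set directly against the inhibitor groups, DN Ras differed from the MEK inhibitor in 448 genes (4.37%, 267 higher and 181 lower, or 2.6% and 1.76%) and from the ERK inhibitor in 1080 (10.5%, 506 higher and 574 lower, or 4.93% and 5.59%). Against the MEK inhibitor the count was 126 without MEK inhibitor replicate 2, 173 without its replicate 3, 191 without DN Ras replicate 2 and 681 without DN Ras replicate 3. Against the ERK inhibitor it was 686, 684 and 597 without ERK inhibitor replicates 1, 2 and 3 and 651 without DN Ras replicate 3. Under median scaling they were 258 and 1230, with 71.3% and 4.72% higher, and the median difference of all genes from the ERK inhibitor was −0.22. Of the 1324 genes called against control, 171 also differed from the MEK inhibitor and 416 from the ERK inhibitor. Only genes detected on all 3 arrays of control or of DN Ras were tested. Genes detected with an inhibitor alone were thus left out, which tilts the split into higher and lower and the list counts below.

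ID1 was higher with DN Ras than with either inhibitor. On the MEK inhibitor arrays it lay at 5.87, 6.32 and 6.39 and on the ERK inhibitor arrays at 5.83, 6.23 and 6.58, within or near the control range and below all DN Ras arrays. The differences were 2.11 ± 0.23 (limma adjusted p = 0.000136) and 2.09 ± 0.23 (5.3e-05), and both passed without any single array. KLF2 was also above both, by 0.89 ± 0.15 (0.00412) and 2.12 ± 0.15 (8.23e-07), with changes against control of 2.01 and 0.78 in the 2 inhibitor groups. ID3 and BAMBI differed from the MEK inhibitor by 0.14 ± 0.12 and −0.21 ± 0.12, neither of which passed (0.585 and 0.376).

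TGM2 was farther down with the MEK inhibitor than with DN Ras. It lay at 5.30, 4.59 and 4.73 on the MEK inhibitor arrays, a difference of 3.41 ± 0.20 (limma adjusted p = 1.74e-07), or 1.97 when all its probes were averaged. Its difference from the ERK inhibitor group did not pass (−0.30 ± 0.20, 0.371). MYEOV (2.12 ± 0.24, 0.000188) and CXCL8 (2.50 ± 0.22, 1.63e-05) were likewise above the MEK inhibitor group, and LCN2 was too (2.72 ± 0.52, 0.00802), though not without MEK inhibitor replicate 3 (limma adjusted p = 0.0507). MFAP5 (−2.41 ± 0.29), TNNC1 (−2.10 ± 0.26), NSG1 (−2.06 ± 0.21) and FOLR1 (−1.70 ± 0.20) were below it, with limma adjusted p-values of 7.03e-05 to 0.000313, and so was ATP6V1B1 (−1.72 ± 0.39, 0.0209), though not without DN Ras replicates 1 and 2 or MEK inhibitor replicates 1, 2 and 3 (limma adjusted p = 0.0501 to 0.112).

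Of the 8 score genes 4 lay higher with DN Ras than with the MEK inhibitor, PHLDA1 (1.27 ± 0.14), EPHA2 (1.29 ± 0.12), SPRY2 (0.68 ± 0.13) and CCND1 (0.87 ± 0.17), with limma adjusted p-values of 4.29e-05 to 0.0105. The difference was not called for SPRY2 without MEK inhibitor replicate 2 (limma adjusted p = 0.0594) nor for CCND1 without DN Ras replicate 2 or MEK inhibitor replicate 2 (limma adjusted p = 0.0598 and 0.067). Against the ERK inhibitor SPRY2 was lower (−0.97 ± 0.13, 0.000329). ETV5, CCND1 and EPHA2 were lower too, with limma adjusted p-values of 0.0188 to 0.0431. They were each lost without DN Ras replicate 3 and without ERK inhibitor replicates 1, 2 or 3 (limma adjusted p = 0.0511 to 0.137). ETV5 was also lost without DN Ras replicate 2 (limma adjusted p = 0.145) and EPHA2 without DN Ras replicate 1 (limma adjusted p = 0.085). EGR1, ETV4 and DUSP6 did not differ from the MEK inhibitor group by a call (0.0816, 0.848 and 0.0777).

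Interferon genes were lower with DN Ras than with the ERK inhibitor. Against control, the median change of the interferon response list was 0.16 with DN Ras and 0.70 with the ERK inhibitor. For the interferon ligands and induced chemokines it was 0.23 and 2.37. IFNB1 lay at 10.04, 10.03 and 10.30 on the ERK inhibitor arrays, all above the DN Ras arrays, a difference of −2.53 ± 0.17 (limma adjusted p = 4.14e-07). IFNL1 (−2.44 ± 0.17, 8.12e-07), IFNL2 (−2.31 ± 0.13, 1.23e-07) and CXCL10 (−2.56 ± 0.23, 1.19e-05) were lower too, and probes of IFNL1 and IFNL2 may read each other's transcripts. Of 36 interferon response genes 23 were lower with DN Ras than with the ERK inhibitor and 0 higher, beside 5.59% and 4.93% of all genes, and 7 were higher than with the MEK inhibitor and 0 lower, beside 2.6% and 1.76%. KRT34 was below the ERK inhibitor group (−3.20 ± 0.50, 0.000989) and ID2 (2.05 ± 0.34) and DIO2 (1.85 ± 0.32) above it, with limma adjusted p-values of 0.00156 and 0.00207. PLCXD3 was above it (2.03 ± 0.40, 0.0052), with DN Ras values of 6.38, 7.03 and 8.68 and replicate 3 the highest.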

How the data were processed

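Per the labels, total RNA of 12 samples was hybridised to Illumina bead arrays, 1 array a sample. The authors deposited mean bead intensity and a detection p-value per probe and array. The submitters' processing notes list GenomeStudio, without a version. The authors' processed intensity table served as an alternative. Intensities were background-corrected with normexp from detection p-values (limma 3.58.1 in R 4.3.3, offset 16), quantile-normalised over 12 arrays and put on the log2 scale, where the deposited values were linear. Probes with a detection p-value under 0.01 on all 3 arrays of either group were kept (16482), 13461 had 1 gene, and the probe with the highest mean over the 6 arrays stood for each of 10261 genes. Levels of genes that only some arrays detected lie near background. Group means were fitted with lmFit and eBayes, with Benjamini-Hochberg adjustment at 0.05. A gene undetected on all arrays of a group has a bound, the bright group's mean over the higher of the lowest detected signal and its own. Named genes were the 15 largest rises and falls whose 3 same-numbered differences shared a sign, all members of the first pathway lists, up to 4 called members of every other list, 8 genes on which DN Ras replicate 3 was farthest away and the 5 largest differences each way from each inhibitor. Members, lists and tests were chosen with earlier results of these data known. The number of arrays limits the precision. One of the named rises is not reported here.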

Additional observations from a re-analysis of the deposited data

How the results depend on the processing

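The count of genes that differed between DN Ras and control was 761 to 1536 with 1 array left out, 830 on the 6 arrays alone and 730 under median scaling (172 higher and 558 lower). Against the MEK inhibitor it was 126 to 681 with 1 array left out, 258 under median scaling, 282 with no filter and 749 with array weights. Against the ERK inhibitor it was 597 to 1383 with 1 array left out. With no filter more genes were tested, and with 1 array left out fewer arrays were used; for the other settings the cause was not tested. Of 203 named genes 152 were called and 96 of these kept their call under every alternative run, while median scaling ended 34 calls. LCN2 (0.69, limma adjusted p = 0.0463) and SAA1 (0.57, 0.0351) turned to rises on 5 arrays alone without DN Ras replicate 3, a setting chosen after seeing the data. Same-numbered control and DN Ras arrays deviated from their group means with r = 0.0693, −0.186 and 0.0756, so the numbers were not taken to pair the samples. With the replicate block the counts were 1450, 529 and 1182 against control, the MEK inhibitor and the ERK inhibitor. Levels near background limit low genes: 29 called genes were detected on no control array and 32 on no DN Ras array. Of 48 other probes of called named genes 18 did not pass, and 0 were called in the opposite direction.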
